A study of Arabidopsis thaliana with 8 samples.

Results

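Transcript levels of red-treated phyB seedlings were set against those of red-treated wild type in dark-grown (etiolated) Arabidopsis thaliana. The libraries were chosen by the genotype and the treatment in their titles, not by a measured value, and they are 4 of the 8 RNA sequencing libraries of the series: 2 of phyB red and 2 of WT red. All seedlings were of the Col ecotype and 4.5 days old, and had spent 4 days in darkness at 22 °C on medium with 1% sucrose. All had also had 3 days of stratification, 12 h of white light and 21 h for germination. The phyB red seedlings carried a mutation in the photoreceptor gene PHYB and then received 1 h of red light with a fluence rate of 50 µmol (per square metre and second). The WT red seedlings were wild type and received the same light. Also used were 2 phyAB red libraries (mutated in PHYA and PHYB, same light) and 2 WT dark libraries (wild type, no red light). They served for single tests and for levels set side by side. The labels name neither the phyB allele nor the number of seedlings in a library, and they do not say whether the 2 libraries of a group came from separate cultures, so the p-values cover no more than the scatter of these libraries, which may be technical. Dark phyB libraries are not analysed here, so a difference that the lines already had in darkness and a difference in their reaction to light cannot be told apart. An effect of the phyB mutation and another difference between this line and wild type cannot be told apart either. The gene AT3G55900, for one, lacked reads in phyB red alone.

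Phytochromes are receptors that red light switches into an active form, which enters the nucleus. There the active form brings about the breakdown of the phytochrome interacting factors (PIFs), basic helix-loop-helix proteins that bind DNA at short E-box and G-box motifs and keep seedlings in their dark form: a long hypocotyl, a closed hook and undeveloped chloroplasts. PIFs switch on genes of auxin, other growth hormones and cell expansion. Phytochrome B is the main receptor of continuous red light, whereas phytochrome A is abundant in darkness, is itself broken down in light and can carry the first reaction of an etiolated seedling.

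The libraries held between 15926547 and 22116924 reads assigned to genes, and 20716 of 27416 gene models had enough reads to be tested. Levels are CPM (counts scaled to library size), fold changes are on the log2 scale with their SE, and every adjusted p is from edgeR's quasi-likelihood test with Benjamini-Hochberg adjustment over all 20716 genes, called under 0.05, with n = 2 libraries per group. In phyB red, 2712 genes were called higher than in WT red (13.1% of those tested) and 2896 lower (14.0%), with a median log2 difference of 0.00 over all genes tested. Most calls were small: 4471 of them (79.7%) lay under a 1.5-fold change, and the biological coefficient of variation between libraries of a group was 1.59%. Both phyB red libraries lay above both WT red libraries in 6252 genes (30.2%) and below them in 6239 (30.1%). Among called genes this held for 2700 of the 2712 higher and 2883 of the 2896 lower. For a called gene, groups that do not overlap are therefore no further support. By at least 2-fold, 241 genes were called higher (1.16%) and 219 lower (1.06%). In such bulk samples of seedlings, fewer cells of a type and less RNA per cell cannot be told apart.

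**Figure D1:**
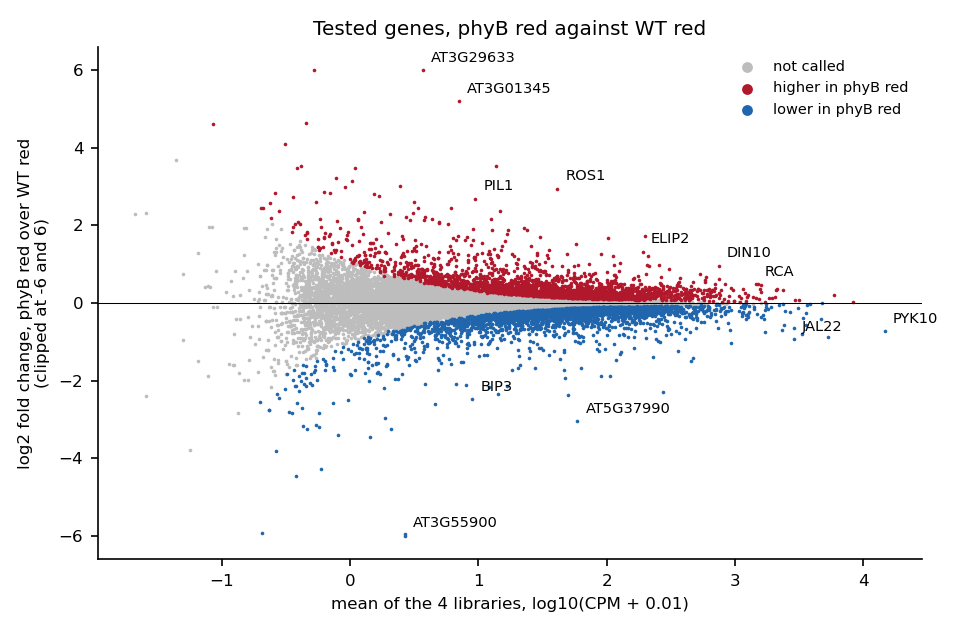
Log2 difference of phyB red minus WT red (vertical axis, clipped at 6 either way) against mean level in CPM (horizontal log axis) for all 20716 tested genes, with genes called higher and lower in colour. The cloud is centred on 0, with 241 genes called at least 2-fold higher and 219 called at least 2-fold lower.

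The mutated gene was checked in every library. PHYB (AT2G18790, chromosome 2, 8139756 to 8144461, plus strand, TAIR10.1) stood at 62.3 and 64.3 CPM in phyB red, against 96.0 and 95.2 CPM in WT red (log2 -0.59 ± 0.04, edgeR, adjusted p = 2.80e-20). Both phyB red libraries lay below both WT red libraries, yet most of the transcript was still there, and the counts do not show whether a working protein was made. PHYA was called higher, with 703 and 703 CPM in phyB red, against 463 and 471 CPM in WT red (log2 0.59 ± 0.02, edgeR, adjusted p = 4.58e-46). Of the other phytochromes, PHYC did not pass (-0.03 ± 0.06, adjusted p = 0.747 in edgeR's test). PHYD (0.36 ± 0.11) and PHYE (0.26 ± 0.09) were called higher but lost the call under 4 and 3 of the 9 alternative settings.

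Growth regulators of the PIF pathway stood higher in phyB red. The list of HD-ZIP II genes, homeobox factors that mark shade and auxin responses, holds auxin-inducible members alone. All 5 listed genes were called higher and 0 lower (median log2 0.96 against 0.00 over all genes tested). HAT2 had 73.7 and 74.8 CPM in phyB red, against 39.2 and 36.9 CPM in WT red (log2 0.96 ± 0.05, edgeR, adjusted p = 3.51e-28). ATHB4 showed the largest difference of the 5 (4.99 and 4.72 CPM in phyB red, against 1.40 and 1.76 CPM in WT red, log2 1.63 ± 0.24). HAT1 (0.96 ± 0.06), HAT3 (0.87 ± 0.10) and ATHB2 (0.69 ± 0.08) followed, and in none of the 5 did the libraries of the groups overlap.

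The PRE, BEE, HBI1 and IBH1 genes encode basic helix-loop-helix proteins that act for or against cell elongation downstream of brassinosteroid and gibberellin. Of 10 tested, 8 were called higher and 0 lower (median log2 1.15). PRE6 had 81.9 and 88.5 CPM in phyB red, against 29.7 and 30.4 CPM in WT red (log2 1.51 ± 0.05, edgeR, adjusted p = 2.04e-40), so that the lower phyB red library was more than 2-fold above the higher WT red library. BEE1 had 37.8 and 37.8 CPM in phyB red, against 14.1 and 12.8 CPM in WT red (log2 1.48 ± 0.08, edgeR, adjusted p = 7.72e-28), PRE5 differed by 1.30 ± 0.25 and PRE1 by 1.27 ± 0.13. Of 14 genes known to be induced by PIFs or shade, a list that shares HAT2 and ATHB2 with the HD-ZIP II genes, 13 were called higher and 0 lower (median log2 1.14). PIL1, a PIF relative, stood at 15.9 and 16.7 CPM in phyB red, against 2.23 and 2.88 CPM in WT red. In WT dark it stood at 25.4 and 25.5 CPM. The growth inhibitor PAR1 stood at 19.5 and 20.6 CPM in phyB red, against 5.34 and 5.52 CPM in WT red. YUC9 was the member that did not pass (log2 -0.02 ± 0.37, adjusted p = 0.981 in edgeR's test).

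The PIF genes themselves differed little. PIF3 was called higher (40.2 and 39.7 CPM in phyB red, against 32.0 and 32.3 CPM in WT red, log2 0.31 ± 0.06). PIF7 (-0.43 ± 0.13) was called lower and PIF5 (0.16 ± 0.05) and UNE10, also known as PIF8 (0.23 ± 0.08), higher, and each lost the call in 3 to 5 of the 9 alternative settings.

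Small auxin up RNA (SAUR) genes made up 6 of the 12 genes with the highest difference among called genes that averaged 5 CPM or more. SAUR proteins are made soon after auxin arrives, and members such as SAUR19 promote acid growth by keeping the plasma membrane proton pump active. Of 79 family members listed, 67 were tested, and 33 were called higher and 4 lower (median log2 0.47, range -1.01 to 2.61). SAUR22 had 24.6 and 24.8 CPM in phyB red, against 5.13 and 4.26 CPM in WT red (log2 2.38 ± 0.12, edgeR, adjusted p = 1.11e-31). SAUR15 had 9.73 and 10.9 CPM in phyB red, against 1.92 and 1.88 CPM in WT red (log2 2.44 ± 0.20, edgeR, adjusted p = 2.57e-18). SAUR25, the member with the largest difference, had 5.36 and 5.44 CPM in phyB red, against 0.881 and 0.878 CPM in WT red (log2 2.61 ± 0.28, edgeR, adjusted p = 1.46e-14). For each of these the phyB red libraries lay above both WT red libraries by more than 4-fold.

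The calls were spread unevenly over the family. Several of the members called at least 2-fold higher lie side by side. On chromosome 3, the log2 differences of SAUR26 to SAUR29 ran between 1.10 ± 0.14 (SAUR27) and 1.90 ± 0.15 (SAUR29). On chromosome 5, those of SAUR19 to SAUR23 ran between 1.25 ± 0.09 (SAUR20) and 2.38 ± 0.12 (SAUR22). On chromosome 1, SAUR62 to SAUR64 and the group AT1G29490, SAUR66 and SAUR68 lay between 1.14 ± 0.12 (SAUR64) and 2.16 ± 0.22 (AT1G29490). The 4 members called lower were SAUR36 (-0.21 ± 0.07), SAUR55 (-0.19 ± 0.06), SAUR59 (-0.35 ± 0.08) and SAUR72 (-0.37 ± 0.10), a count that was 2 to 4 across the alternative settings. SAUR19, SAUR22, SAUR23 and SAUR24 are 89.7% to 95.2% identical in their coding sequence, so reads may be split wrongly among such copies.

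**Figure D2:**
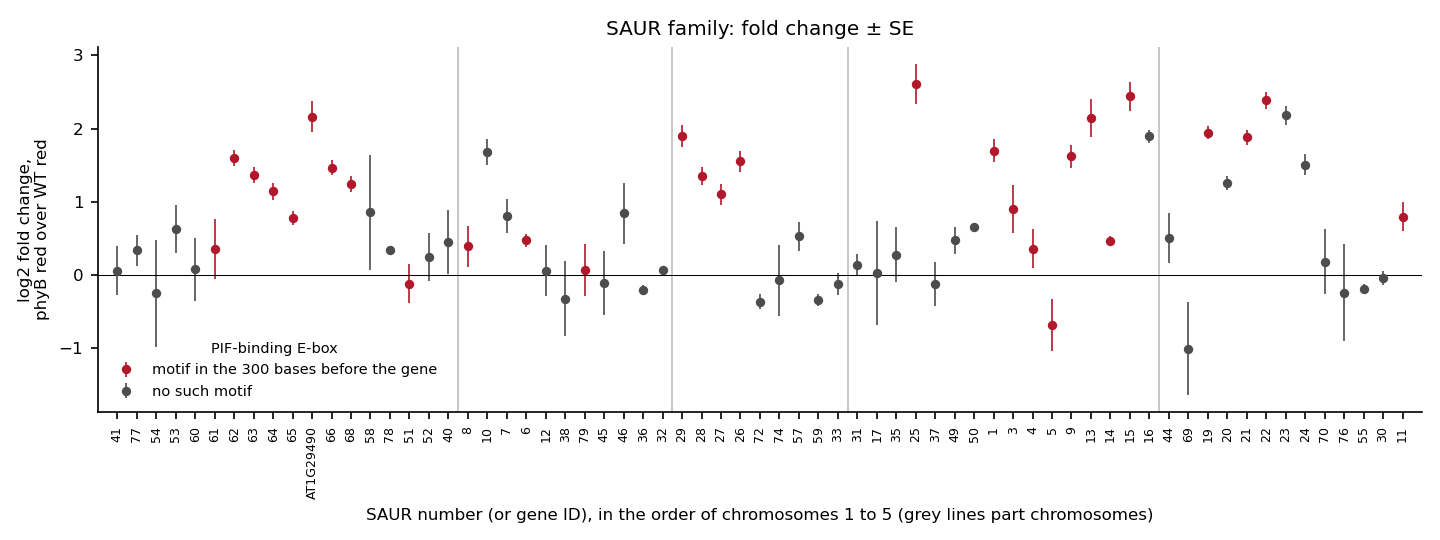
Log2 difference of phyB red minus WT red (vertical axis, bars are SE) for the 67 tested SAUR genes in chromosome order (horizontal axis, grey lines part the chromosomes), coloured by whether the 300 bases before the gene hold CATGTG on either strand. Of the 33 members called higher, 23 hold it, against 6 of the 30 that did not pass and 0 of the 4 called lower. Several higher members are neighbouring copies, so these may not be separate cases.

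Upstream sequence was searched for 3 motifs on both strands in the 300 bases before the annotated start of each gene (RefSeq, TAIR10.1): the G-box (CACGTG), the E-box bound by PIFs (CATGTG) and the auxin response element (TGTCTC). On the other strand the E-box reads CACATG, the auxin response element reads GAGACA and the G-box reads the same. The last letters of the E-box can be the first of the auxin response element. Of 20488 such windows of tested genes, 8.02% held the G-box, 13.2% the PIF-binding E-box and 12.8% the auxin response element. Before SAUR genes, 29 of 67 windows held the E-box (43.3%), 7 the auxin response element (10.4%) and 1 the G-box (1.49%). The 7 with the auxin response element were all among the 33 called higher. Shown here are the windows of SAUR22 (chr5:5975088-5975387, minus strand), SAUR15 (chr4:18125757-18126056, plus strand) and SAUR25 (chr4:8000373-8000672, minus strand), chosen because these 3 had the largest differences of the family, each 5′ to 3′ with the motifs in capitals.
SAUR22: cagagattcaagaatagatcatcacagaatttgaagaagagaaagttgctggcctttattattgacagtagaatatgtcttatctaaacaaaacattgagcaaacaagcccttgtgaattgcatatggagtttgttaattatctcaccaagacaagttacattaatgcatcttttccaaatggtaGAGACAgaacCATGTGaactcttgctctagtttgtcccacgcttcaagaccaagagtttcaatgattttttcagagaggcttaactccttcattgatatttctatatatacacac
SAUR15: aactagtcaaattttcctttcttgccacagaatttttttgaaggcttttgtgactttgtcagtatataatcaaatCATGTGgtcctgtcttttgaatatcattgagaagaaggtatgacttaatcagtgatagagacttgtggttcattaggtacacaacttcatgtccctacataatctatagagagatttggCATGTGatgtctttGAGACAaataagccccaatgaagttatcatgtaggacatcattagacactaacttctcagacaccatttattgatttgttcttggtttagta
SAUR25: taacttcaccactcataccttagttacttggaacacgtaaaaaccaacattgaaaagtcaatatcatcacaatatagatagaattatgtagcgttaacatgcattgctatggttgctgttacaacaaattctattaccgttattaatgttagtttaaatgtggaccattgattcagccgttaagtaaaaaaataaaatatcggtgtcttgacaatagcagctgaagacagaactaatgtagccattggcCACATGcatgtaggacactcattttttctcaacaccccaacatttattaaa
The E-box is present in all 3 windows, in SAUR15 in 2 copies, and SAUR22 and SAUR15 each hold 1 auxin response element as well. A match describes the letters and not binding, and windows without a match say nothing about the factor. Whether neighbouring SAUR copies share upstream sequence was not tested, so their windows may not be separate cases. Over all tested genes the shares were nearer the background of 13.2%. The E-box stood in 15.3% of the windows of genes called higher and in 13.7% of those called lower, and among genes called at least 2-fold in 19.6% of the 240 higher and 15.6% of the 218 lower.

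Auxin feedback and transport genes were higher too. The Aux/IAA proteins, repressors that auxin both induces and destroys, had 16 of 26 genes called higher and 1 lower (median log2 0.36). IAA19 had 125 and 132 CPM in phyB red, against 53.3 and 54.6 CPM in WT red (log2 1.25 ± 0.04, edgeR, adjusted p = 6.53e-41) and IAA2 differed by 1.22 ± 0.03. The auxin response element stood before 11 of the 26 genes (42.3%), among them 7 of the 16 called higher and 4 of the 9 that did not pass. The windows of IAA19 (chr3:5263701-5264000, plus strand) and BEE1 (chr1:6331098-6331397, plus strand) are shown because IAA19 holds all 3 motifs, with the auxin response element in 3 copies, and BEE1 the G-box.
IAA19: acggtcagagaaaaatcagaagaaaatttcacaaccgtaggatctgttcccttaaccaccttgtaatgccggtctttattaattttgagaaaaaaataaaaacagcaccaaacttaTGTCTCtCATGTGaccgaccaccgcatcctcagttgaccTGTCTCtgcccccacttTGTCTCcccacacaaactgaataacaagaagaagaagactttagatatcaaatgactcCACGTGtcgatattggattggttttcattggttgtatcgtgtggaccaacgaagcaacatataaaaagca
BEE1: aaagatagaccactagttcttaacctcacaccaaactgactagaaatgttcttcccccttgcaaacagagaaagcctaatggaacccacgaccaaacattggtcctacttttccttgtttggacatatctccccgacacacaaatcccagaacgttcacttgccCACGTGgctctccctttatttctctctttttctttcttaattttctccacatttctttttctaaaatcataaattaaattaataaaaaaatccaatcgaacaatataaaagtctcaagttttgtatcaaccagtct
Of 9 GH3 genes, whose enzymes conjugate auxin and other hormones to amino acids, 6 were called higher and 1 lower, with GH3.3 at 9.79 and 9.85 CPM in phyB red, against 3.89 and 4.26 CPM in WT red (log2 1.27 ± 0.14). Of 12 auxin transport genes, 5 were called higher and 0 lower, among them the efflux carrier genes PIN3 (0.64 ± 0.03), PIN4 (0.31 ± 0.05) and PIN7 (0.26 ± 0.04) and the influx carrier gene AUX1 (0.37 ± 0.03). PIN3 had 196 and 199 CPM in phyB red, against 126 and 129 CPM in WT red. Of 9 auxin synthesis genes, 2 were called higher and 0 lower, YUC8 (15.7 and 18.7 CPM in phyB red, against 8.55 and 8.15 CPM in WT red, log2 1.05 ± 0.12) and YUC3 (0.69 ± 0.17), so that the list's median was -0.02.

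Other growth hormones followed in part. In ethylene synthesis, 6 of 11 genes were called higher and 1 lower (median log2 0.43). ACO4, an enzyme of the last step, had 272 and 277 CPM in phyB red, against 138 and 142 CPM in WT red (log2 0.98 ± 0.03, edgeR, adjusted p = 1.92e-41). Of 10 genes of gibberellin synthesis and inactivation, 5 were called higher and 0 lower, and these included enzymes of both directions. GA20OX1, which makes precursors of active gibberellin, had 39.0 and 40.1 CPM in phyB red, against 22.1 and 22.8 CPM in WT red (log2 0.82 ± 0.07). GA2OX1, which inactivates the hormone, had 19.1 and 18.6 CPM in phyB red, against 12.0 and 12.6 CPM in WT red (log2 0.62 ± 0.11). Among 9 DELLA and gibberellin receptor genes, the growth repressor gene GAI was called higher (41.6 and 42.4 CPM in phyB red, against 23.4 and 26.5 CPM in WT red, log2 0.76 ± 0.07) and 3 were called lower. In brassinosteroid synthesis and inactivation, 5 of 9 were called higher and 1 lower, with the inactivating enzyme gene BAS1 at 0.59 ± 0.06, the synthesis gene BR6OX2 at 0.47 ± 0.04 and the synthesis gene DET2 at -0.66 ± 0.10.

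Genes of the growing cell moved in both directions. Beta-tubulin genes, which encode microtubule subunits, were called higher in 8 of 9 and lower in 0 (median log2 0.25). TUB6 had 281 and 275 CPM in phyB red, against 212 and 215 CPM in WT red (log2 0.38 ± 0.03). Reads may be split among these similar copies. Xyloglucan enzyme genes were called higher in 13 of 28 and lower in 6, and the count of lower genes was 3 to 6 over the alternative settings. XTH15 had 160.1 and 154 CPM in phyB red, against 49.1 and 49.8 CPM in WT red (log2 1.67 ± 0.05), with 578 and 581 CPM in WT dark. Expansin genes, whose proteins loosen walls, split into 7 higher and 7 lower of 26, and the lowest, EXPA16, had 4.86 and 4.45 CPM in phyB red, against 23.8 and 23.4 CPM in WT red (log2 -2.35 ± 0.12). Aquaporin genes split into 6 higher and 8 lower of 21, without a common direction. The tonoplast gene DELTA-TIP had 1829 and 1840.4 CPM in phyB red, against 1332 and 1331 CPM in WT red. The plasma membrane gene PIP2B had 2303 and 2277 CPM in phyB red, against 2626 and 2660.0 CPM in WT red.

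**Figure D3:**
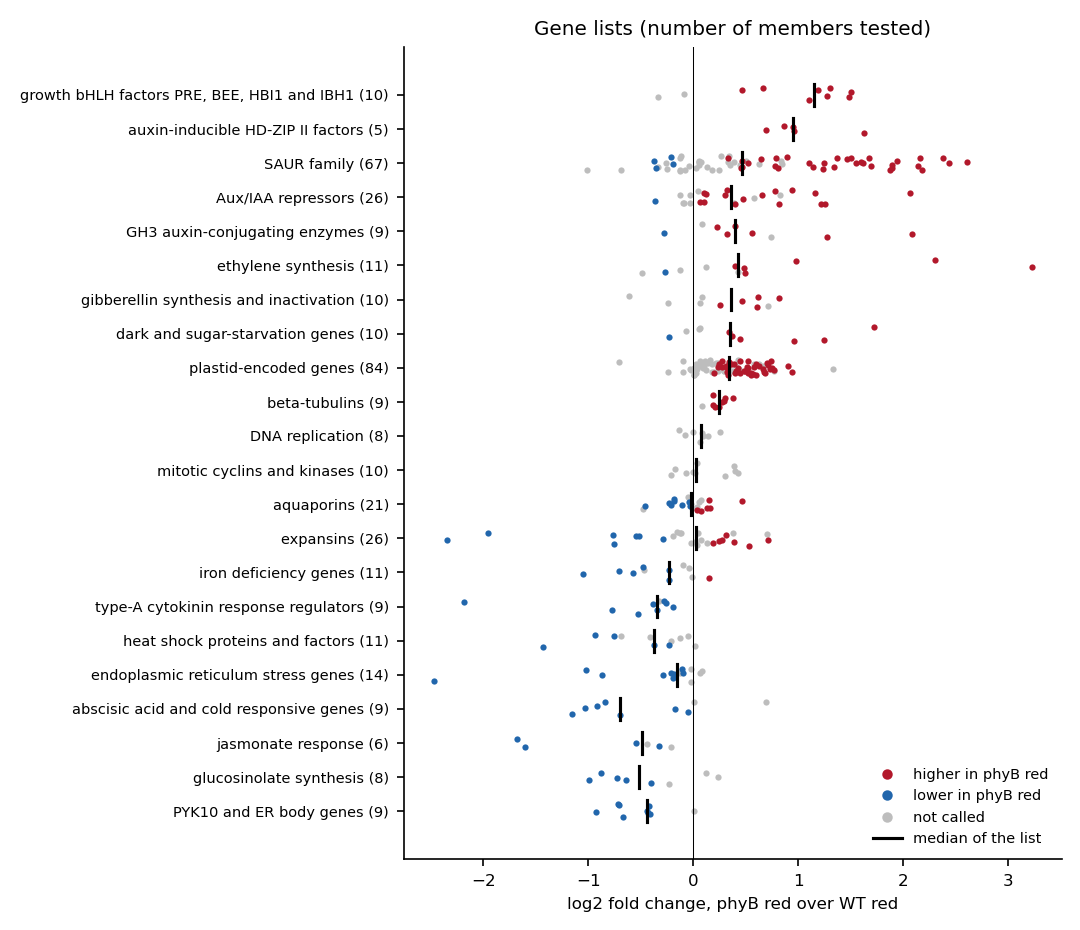
Log2 difference of phyB red minus WT red for each tested gene of 22 gene lists (points) with the list's median (bar). The medians run from -0.70 for abscisic acid and cold responsive genes to 1.15 for the PRE and BEE group, with 0.00 over all genes tested.

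Nuclear genes of photosynthesis were mostly called higher. Of 21 antenna protein genes, whose products bind chlorophyll and collect light, 19 were called higher and 0 lower (median log2 0.34). LHCB2.3 had 287 and 282 CPM in phyB red, against 143 and 149 CPM in WT red (log2 0.96 ± 0.03), the largest difference of that list. All 8 ELIP and related genes, whose proteins shield the assembling apparatus, were called higher (median log2 0.35). ELIP2 had 277 and 269 CPM in phyB red, against 109 and 109 CPM in WT red (log2 1.32 ± 0.03, edgeR, adjusted p = 9.43e-51). ELIP1 had 158 and 158 CPM in phyB red, against 68.1 and 68.3 CPM in WT red (log2 1.21 ± 0.04). In these 3 genes both phyB red libraries lay above both WT red libraries. All 5 genes of Rubisco small subunits and its activase were called higher, 18 of 24 chlorophyll synthesis genes were called higher and 0 lower, and 12 of 14 Calvin cycle genes were called higher and 2 lower (1 lower with DESeq2 and without either of 2 libraries, WT red replicate 1 or phyB red replicate 2). Their medians were 0.34, 0.20 and 0.26. Reads may be split among the similar copies of antenna and Rubisco genes.

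The plastid genome's own genes were higher by small steps. Of 84 tested plastid-encoded genes, 41 were called higher and 0 lower (median log2 0.34), and together they took 2769 and 2768 CPM in phyB red, against 2176 and 2223 CPM in WT red. Whether RNA was selected by its poly(A) tail is not given in the sources used here, and this affects how such genes are caught. The nuclear gene SIG5, which encodes a sigma factor of the plastid RNA polymerase, had 80.5 and 87.4 CPM in phyB red, against 50.7 and 48.4 CPM in WT red (log2 0.76 ± 0.05, edgeR, adjusted p = 4.82e-22). SIG1 (0.33 ± 0.05) and SIG6 (0.34 ± 0.06) were called higher as well. The GATA factor gene CGA1, which cytokinin and light induce, was called lower, with 3.06 and 3.78 CPM in phyB red, against 6.99 and 6.83 CPM in WT red (log2 -1.0 ± 0.19). RCA, the gene of Rubisco activase, stood at 1709 and 1719.7 CPM in phyB red, against 1227 and 1220.2 CPM in WT red.

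The light-signalling genes RUP1 and PHOT1 had the largest differences of their lists. Of 8 blue and UV-B photoreceptor genes, 3 were called higher and 1 lower (median log2 -0.01), the lower being UVR8 (-0.17). Of 8 genes of COP1, SPA and DET1 repressors, a list that holds RUP1, 3 were called higher and 0 lower (median log2 0.14). RUP1, a repressor of the UV-B receptor, had 44.8 and 45.2 CPM in phyB red, against 22.2 and 20.9 CPM in WT red (log2 1.06 ± 0.07). The phototropin gene PHOT1, a blue light receptor, had 398 and 395 CPM in phyB red, against 219 and 211 CPM in WT red (log2 0.88 ± 0.03). Of 29 HY5 and B-box genes, 10 were called higher, 1 lower and 18 in neither direction (median log2 0.08, range -1.59 to 0.97). The B-box genes BBX27 (0.97 ± 0.07) and BBX28 (0.94 ± 0.07) were called higher, BBX27 with 51.1 and 47.6 CPM in phyB red, against 26.4 and 23.7 CPM in WT red. FHL, whose protein carries phytochrome A into the nucleus, differed by 0.85 ± 0.19.

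Genes of dark and sugar starvation were called higher in 6 of 10 and lower in 1 (median log2 0.36). ASN1, an asparagine synthetase gene repressed by light and sugar, had 302 and 308 CPM in phyB red, against 90.2 and 95.0 CPM in WT red (log2 1.72 ± 0.04, edgeR, adjusted p = 1.93e-57), with 485 and 478 CPM in WT dark. DIN10, a raffinose synthase family gene, had 987 and 980.2 CPM in phyB red, against 507 and 504 CPM in WT red, with 1390.0 and 1401 CPM in WT dark. For both genes the phyB red libraries lay between WT red and WT dark.

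Type-A response regulators, which cytokinin induces and which damp its signal, were lower as a group: 0 of 9 were called higher and 8 lower (median log2 -0.35). ARR15 had 0.561 and 0.719 CPM in phyB red, against 2.64 and 3.39 CPM in WT red (log2 -2.19 ± 0.35, edgeR, adjusted p = 2.96e-07), and in WT dark 0.200 and 0.107 CPM. ARR7 had 16.1 and 15.8 CPM in phyB red, against 23.6 and 22.3 CPM in WT red (log2 -0.53 ± 0.09). ARR8 had 59.6 and 59.3 CPM in phyB red, against 77.3 and 78.1 CPM in WT red (log2 -0.39 ± 0.05). The libraries of the groups did not overlap in these 3 genes. ARR16 was called lower (-0.78 ± 0.24) but lost the call in 3 of the 9 alternative settings. CKX5, a cytokinin oxidase gene that also belongs to the PIF-induced list, had 34.0 and 34.4 CPM in phyB red, against 16.4 and 16.5 CPM in WT red (log2 1.06 ± 0.08), while CKX4 differed by -0.96 ± 0.17.

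Several lists of stress and hormone response genes had calls on the lower side alone. Of 9 genes responsive to abscisic acid and cold, 0 were called higher and 7 lower (median log2 -0.70). RD29B had 137 and 143 CPM in phyB red, against 262 and 266 CPM in WT red (log2 -0.91 ± 0.03, edgeR, adjusted p = 3.04e-40). The dehydrin gene RAB18 had 4.05 and 6.56 CPM in phyB red, against 11.8 and 10.5 CPM in WT red (log2 -1.03 ± 0.15). KIN1, induced by cold, had 5.86 and 4.41 CPM in phyB red, against 10.1 and 12.5 CPM in WT red (log2 -1.15 ± 0.15). KIN1 and KIN2 are near neighbours with similar sequence, so their reads may be mixed. The abscisic acid list itself (synthesis and breakdown) had 0 of 10 called higher and 3 lower. Over all tested genes, 27.1% were called in either direction and 14.0% lower. This list's number of calls is therefore near the background, and it is too short to read a share from. Of the 3, CYP707A1, a breakdown enzyme gene, had 35.9 and 36.0 CPM in phyB red, against 51.8 and 49.3 CPM in WT red. Of 6 jasmonate response genes, 0 were called higher and 4 lower (median log2 -0.49). They were the factor gene MYC2, the synthesis gene AOS and the neighbouring vegetative storage protein genes VSP1 and VSP2. MYC2 had 134 and 136 CPM in phyB red, against 195 and 199.7 CPM in WT red (log2 -0.55 ± 0.03) and AOS differed by -0.33 ± 0.06. VSP1 had 10.1 and 10.7 CPM in phyB red, against 32.4 and 30.6 CPM in WT red (log2 -1.60 ± 0.09). VSP2 had 12.5 and 13.7 CPM in phyB red, against 42.3 and 42.1 CPM in WT red (log2 -1.68 ± 0.08). Of 7 salicylic acid and defence genes, 0 were called in either direction by edgeR or by DESeq2, and 1 was higher at an unadjusted p under 0.05 in edgeR's test.

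Genes of the unfolded protein response in the endoplasmic reticulum were called lower in 9 of 14 and higher in 0 (median log2 -0.15). The chaperone gene BIP3 had 2.43 and 2.97 CPM in phyB red, against 15.7 and 14.7 CPM in WT red (log2 -2.47 ± 0.15, edgeR, adjusted p = 6.38e-25). TIN1, named for its induction by tunicamycin, had 4.68 and 4.05 CPM in phyB red, against 9.43 and 8.09 CPM in WT red (log2 -1.02 ± 0.17). The co-chaperone gene ERDJ3A had 7.73 and 8.63 CPM in phyB red, against 15.7 and 14.3 CPM in WT red (log2 -0.87 ± 0.12). BIP1 (-0.18 ± 0.03) and BIP2 (-0.29 ± 0.04), close relatives of BIP3 with higher levels, were called lower as well. The G-box stood before 4 of the 14 genes (28.6%), 2 of the 9 called lower and 2 of the 5 that did not pass. The window of BIP3 (chr1:2931851-2932150, minus strand) is shown because BIP3 had the largest difference of the list, and it holds 1 G-box and 1 E-box.
BIP3: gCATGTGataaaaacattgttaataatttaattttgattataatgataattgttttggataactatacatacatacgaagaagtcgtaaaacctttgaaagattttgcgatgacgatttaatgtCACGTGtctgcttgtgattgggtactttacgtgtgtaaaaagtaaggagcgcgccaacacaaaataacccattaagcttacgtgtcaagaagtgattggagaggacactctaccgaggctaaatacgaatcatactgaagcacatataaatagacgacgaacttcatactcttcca
Heat shock genes were called lower in 5 of 11 and higher in 0, a count that was 2 to 5 over the alternative settings, with HSP90-1 at 42.5 and 39.8 CPM in phyB red, against 69.9 and 68.0 CPM in WT red (log2 -0.75 ± 0.05).

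Genes of ER bodies, of glucosinolate synthesis and of iron deficiency were mostly lower where they passed the test. ER bodies are compartments of seedling epidermis and roots that store beta-glucosidases, and of 9 genes of this system 0 were called higher and 8 lower (median log2 -0.44). PYK10, the main beta-glucosidase of ER bodies, had 11068 and 11121 CPM in phyB red, against 18238 and 18231 CPM in WT red (log2 -0.72 ± 0.0029, edgeR, adjusted p = 3.38e-142), the largest loss in CPM of any gene. NAI1, the factor that controls ER body genes, had 125 and 116 CPM in phyB red, against 195 and 187 CPM in WT red. NAI2, needed to form ER bodies, had 1759 and 1781 CPM in phyB red, against 2903 and 2856 CPM in WT red. JAL22, a jacalin-related lectin, had 1966 and 1986 CPM in phyB red, against 3761 and 3767 CPM in WT red. In all 4 genes the groups were apart, as in nearly all called genes.

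The nitrile specifier gene NSP1, which directs glucosinolate breakdown, had 2459 and 2431 CPM in phyB red, against 4256 and 4236 CPM in WT red. Of 13 glucosinolate synthesis genes listed, 8 were tested, and 0 were called higher and 5 lower (median log2 -0.52, range -0.99 to 0.24). CYP79B3, which converts tryptophan, had 44.0 and 43.0 CPM in phyB red, against 85.5 and 87.0 CPM in WT red (log2 -0.99 ± 0.05, edgeR, adjusted p = 4.96e-31). CYP79B2, its close relative, had 32.2 and 27.7 CPM in phyB red, against 52.6 and 56.9 CPM in WT red (log2 -0.88 ± 0.06). MYB34, a factor gene of indolic glucosinolate synthesis, had 108 and 107 CPM in phyB red, against 169 and 165 CPM in WT red (log2 -0.64 ± 0.04). The groups were apart in all 3 genes. Of 11 iron deficiency genes, 1 was called higher and 6 lower, with the iron transporter gene IRT1 at 31.3 and 32.8 CPM in phyB red, against 47.9 and 47.6 CPM in WT red (log2 -0.57 ± 0.06).

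Root markers were examined beside these genes. Of 10 tested, 0 were called higher, 4 lower and 6 in neither direction (median log2 -0.14). Their summed level was 11509 and 11553 CPM in phyB red, against 18879 and 18875 CPM in WT red. Nearly all of it was PYK10, which the list shares with the ER body genes. RHD6, a factor gene of root hair initiation, had 0.936 and 0.989 CPM in phyB red, against 3.99 and 3.51 CPM in WT red (log2 -1.96 ± 0.27, edgeR, adjusted p = 3.73e-09). The beta-glucosidase genes BGLU22 (-0.76) and BGLU21 (-0.15) were called lower as well, BGLU21 not with DESeq2. SHR (-0.03 ± 0.07), SCR (-0.10 ± 0.06) and PLT1 (-0.12 ± 0.37), factor genes of root patterning, did not pass. Neither did the root hair gene COBL9 (0.08 ± 0.23), EXPA7 or PLT2. The list's differences ran from -1.96 to 0.42. Both phyB red libraries lay above both WT red libraries in 2 of the 10 genes and below them in 6 (30.2% and 30.1% of all tested genes). The part of a different root share in the lower metabolism genes was not tested.

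Some genes called at least 2-fold different lay next to each other: 32 runs of 2 or more neighbours held 79 genes, 17 runs higher and 15 lower. The longest, AT5G37980 to AT5G38030 (chromosome 5, 15131289 to 15175566), held 6 genes, all lower, annotated as zinc-binding dehydrogenases, a methyltransferase pair, a UDP-glycosyltransferase and a MATE efflux protein. The methyltransferase gene AT5G37990 had 13.4 and 12.1 CPM in phyB red, against 102 and 108 CPM in WT red (log2 -3.05 ± 0.07, edgeR, adjusted p = 4.21e-58). The second methyltransferase gene, AT5G38020, had 19.2 and 19.6 CPM in phyB red, against 70.5 and 79.2 CPM in WT red (log2 -1.94 ± 0.06). The efflux gene AT5G38030 had 54.5 and 58.9 CPM in phyB red, against 119.8 and 118 CPM in WT red (log2 -1.06 ± 0.04). AT5G37980 had about 1 CPM and lost the call in 4 of the 9 alternative settings.

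The thalianol cluster (chromosome 5, 19428888 to 19461706), which makes a triterpene of roots, was lower throughout. THAS1, thalianol synthase, had 253 and 260.0 CPM in phyB red, against 693 and 690.0 CPM in WT red (log2 -1.43 ± 0.02, edgeR, adjusted p = 8.97e-65). The P450 genes that modify thalianol had 208 and 216 CPM in phyB red, against 507 and 497 CPM in WT red (CYP708A2) and 607 and 622 CPM in phyB red, against 1257 and 1265 CPM in WT red (CYP705A5). The acyltransferase gene AT5G47980 had 22.6 and 20.7 CPM in phyB red, against 72.2 and 70.8 CPM in WT red. In all 4 genes both phyB red libraries lay below both WT red libraries, by log2 -1.03 ± 0.01 (CYP705A5) to -1.73 ± 0.06 (AT5G47980). Of the higher runs, the longest was AT4G15660 to AT4G15700 with 5 thioredoxin superfamily genes at a few CPM. AT4G15690 had 3.87 and 4.09 CPM in phyB red, against 1.45 and 1.69 CPM in WT red (log2 1.35 ± 0.27). The other 4 each lost the call under at least 1 alternative setting.

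**Figure D4:**
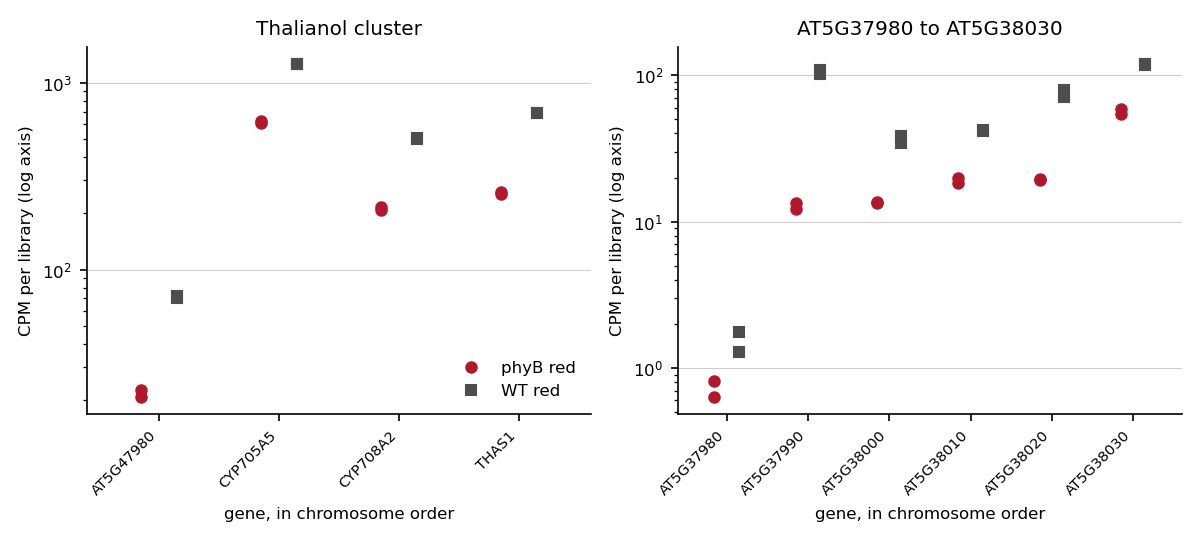
Level in CPM (log axis) of each gene of the thalianol cluster and of the run AT5G37980 to AT5G38030 in every library of phyB red and WT red. In every gene shown both phyB red points lie below both WT red points.

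Of single genes, ROS1 stood out on the higher side. It encodes a DNA glycosylase that removes methylated cytosine, and stood at 72.7 and 73.8 CPM in phyB red, against 9.84 and 9.03 CPM in WT red (log2 2.95 ± 0.08, edgeR, adjusted p = 2.97e-51; AT2G36490, chromosome 2, 15307907 to 15314807, minus strand). In phyAB red it stood at 31.5 and 31.0 CPM and in WT dark at 9.12 and 7.57 CPM, so the phyB red libraries were above those of each other group. Of the 16 DNA methylation and demethylation genes tested, 2 were called higher and 1 lower (median log2 0.01). The calls of the members beside ROS1, AGO4 (0.20 ± 0.07) and DME (-0.14 ± 0.05), were each lost in 3 of the 9 alternative settings. AT2G01008, annotated as a maternal effect embryo arrest protein, had 25.1 and 25.9 CPM in phyB red, against 2.43 and 1.88 CPM in WT red (log2 3.54 ± 0.17, edgeR, adjusted p = 6.19e-35). The uncharacterized gene AT3G01345 had 12.7 and 14.9 CPM in phyB red, against 0.570 and 0.125 CPM in WT red (log2 5.21 ± 0.40).

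In phyAB red, AT2G01008 stood at 1.76 and 2.12 CPM and AT3G01345 at 1.22 and 1.24 CPM, and WT dark had 3.06 and 3.71 CPM and 0.250 and 0.483 CPM. The phyB red libraries were thus the highest of all 8 for both genes.

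**Figure D5:**
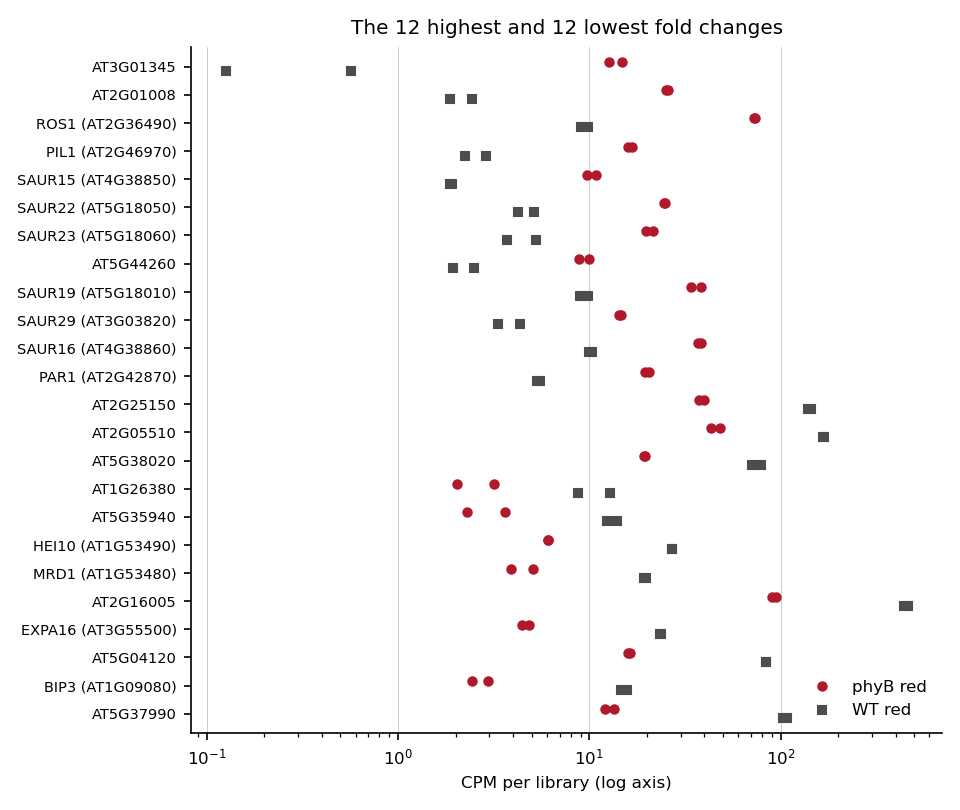
Level in CPM (log axis) in each library of phyB red and WT red for 24 called genes that averaged 5 CPM or more, 12 at the top and 12 at the bottom of the log2 differences. The groups do not overlap in any of the 24 genes, a condition of the choice.

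Among the lowest, AT5G04120, annotated as a phosphoglycerate mutase family protein, had 16.0 and 16.4 CPM in phyB red, against 84.2 and 84.3 CPM in WT red (log2 -2.38 ± 0.06, edgeR, adjusted p = 1.67e-51). The lipid recognition protein gene AT2G16005 had 95.2 and 90.6 CPM in phyB red, against 443 and 463 CPM in WT red (log2 -2.29 ± 0.03). HEI10, an E3 ligase gene needed for meiotic crossovers, and MRD1 overlap on opposite strands (AT1G53490, chromosome 1, 19963267 to 19966952, plus strand; AT1G53480, chromosome 1, 19963047 to 19964712, minus strand). HEI10 stood at 6.05 and 6.11 CPM in phyB red, against 27.1 and 27.0 CPM in WT red. MRD1 stood at 5.05 and 3.91 CPM in phyB red, against 19.9 and 19.2 CPM in WT red. No source used here states the strand of the reads, so the reads of these 2 genes cannot be told apart where they overlap. In phyAB red, which is also mutated in PHYB, AT5G04120 stood at 67.8 and 65.3 CPM and AT2G16005 at 288 and 290 CPM. HEI10 stood there at 21.5 and 21.8 CPM and MRD1 at 16.4 and 16.2 CPM. All 4 genes were thus nearer to WT red in phyAB red than in phyB red, and the cause was not tested.

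A few genes were read in 1 line and nearly absent from the other. AT3G55900, an F-box protein gene, had 0 reads in phyB red, against 186 reads in WT red, which makes it at least 67.3-fold lower when 3 counts for the group serve as the floor. Its neighbour AT3G55910 had 3 reads in phyB red, against 187 in WT red, 67.7-fold lower (95% interval for counting error 22.8 to 331). AT3G55900 stood at 4.61 and 5.48 CPM in phyAB red and at 5.16 and 5.37 CPM in WT dark, so phyB red was the group without reads. The genes on either side were lower by less. AT3G55890 overlaps a large part of AT3G55900, and AT3G55920 the end of AT3G55910, so their reads cannot be told apart there. AT3G55890, a zinc-binding protein gene, had 8.54 and 7.96 CPM in phyB red, against 15.9 and 16.7 CPM in WT red (log2 -0.99 ± 0.11). The cyclophilin-like gene AT3G55920 had 5.74 and 5.40 CPM in phyB red, against 9.12 and 9.34 CPM in WT red (log2 -0.73 ± 0.15). Farther out, SUE4 and CCR3 did not pass, and AT3G55940, a phospholipase C family gene that lies between AT3G55920 and CCR3, was called higher (0.52 ± 0.12). The pair and its 2 neighbours span 20740610 to 20745153 on chromosome 3.

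In the other direction, the uncharacterized gene AT3G29633 had 283 reads in phyB red, against 3 in WT red, which is 86.9-fold higher (29.4 to 424). AT3G55240 had 37 reads in phyB red, against 0 in WT red, at least 11.4-fold higher, but was not called by DESeq2 (adjusted p = 0.424). AT2G21930 had 33 reads in phyB red, against 1 in WT red (30.4-fold, interval 5.09 to 1236), and AT3G44006 had 2 reads in phyB red, against 40 in WT red (21.7-fold lower, interval 5.63 to 185).

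Of cell division genes, 0 were called in either direction, against 27.1% of all tested genes. None of 8 DNA replication, 10 mitotic cyclin and kinase or 9 growth-regulating factor genes passed in edgeR's main fit or DESeq2's test. Their median log2 differences were 0.08, 0.03 and 0.00. Not every alternative setting left the growth-regulating factor list without a call. At an unadjusted p under 0.05 in edgeR's test, 0 of the DNA replication genes, 2 mitotic genes higher and 1 lower, and 1 growth-regulating factor gene higher were found. Of markers of other cell types, 0 of 5 tested stomatal lineage genes, 0 of 5 seed and embryo genes, 1 of 4 vascular genes and 2 of 3 guard cell genes were called, where 27.1% of all tested genes were. These lists are too short to read a share from. The sucrose transporter gene SUC2 was lower (-0.31 ± 0.05) and the guard cell factor gene MYB60 higher (0.75 ± 0.15). The other vascular genes, VND7 (0.24), APL (0.12) and CESA7 (0.02), did not pass, and the vascular list's median was 0.07. The potassium channel gene GORK was lower (-0.15 ± 0.05), a call lost in 3 of the 9 alternative settings. The stomatal lineage and seed lists had 0 calls by DESeq2 too, and at an unadjusted p under 0.05 in edgeR's test 1 stomatal lineage gene was higher, 1 was lower and 0 seed genes passed. Summed levels of the stomatal lineage genes were 21.6 and 21.8 CPM in phyB red, against 20.5 and 20.7 CPM in WT red. Those of the vascular genes were 102 and 101 CPM in phyB red, against 118 and 114 CPM in WT red. The seed and embryo genes summed to 0.437 and 0.989 CPM in phyB red, against 0.881 and 0.815 CPM in WT red. Of the shoot meristem genes, WUS had 0 CPM in both phyB red libraries, CLV3 and CUC2 were too low to be tested, and STM was called lower (-0.53 ± 0.15), a call lost in 2 of the 9 alternative settings. The part of such cell types in the results was not tested.

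The phyAB line was tested against the phyB line to see where these levels differed between the lines. The lines also differ in genes such as AT3G55900, which lacked reads in phyB red alone. An effect of the PHYA mutation and another difference between the lines therefore cannot be told apart. Both comparisons use the phyB red libraries, so their values stand side by side only. In phyAB red, 5389 genes were called higher than in phyB red (26.0% of those tested) and 4991 lower (24.1%), 50.1% in all. Of the 14 PIF-induced and shade genes, 4 were called higher and 4 lower in phyAB red (median log2 0.00). XTH15 was among the higher (0.59 ± 0.03), and HFR1, whose protein holds PIFs off DNA, among the lower (-0.73 ± 0.03). Others did not pass. PIL1 had 15.9 and 16.9 CPM in phyAB red, against 15.9 and 16.7 CPM in phyB red (log2 0.00 ± 0.09, edgeR, adjusted p = 0.999). HAT2 had 77.3 and 70.5 CPM in phyAB red, against 73.7 and 74.8 CPM in phyB red (log2 0.00 ± 0.05, edgeR, adjusted p = 0.969). IAA19 had 119 and 124 CPM in phyAB red, against 125 and 132 CPM in phyB red (log2 -0.08 ± 0.04, edgeR, adjusted p = 0.0576). SAUR genes were called higher in phyAB red in 9 and lower in 33 of 67. SAUR22 had 14.6 and 17.4 CPM in phyAB red, against 24.6 and 24.8 CPM in phyB red (log2 -0.64 ± 0.09). SAUR16 had 13.3 and 13.1 CPM in phyAB red, against 38.5 and 37.0 CPM in phyB red (log2 -1.51 ± 0.08).

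SIG5, RCA and RUP1 were far lower in phyAB red than in phyB red. SIG5 had 12.6 and 12.8 CPM in phyAB red, against 80.5 and 87.4 CPM in phyB red (log2 -2.73 ± 0.07, edgeR, adjusted p = 4.12e-53). RCA had 354 and 363 CPM in phyAB red, against 1709 and 1719.7 CPM in phyB red (log2 -2.26 ± 0.01). RUP1 had 10.2 and 9.60 CPM in phyAB red, against 44.8 and 45.2 CPM in phyB red (log2 -2.18 ± 0.08). The lists that were lower in phyB red stood higher in phyAB red in part. Endoplasmic reticulum stress genes were called higher in 12 of 14 and lower in 0. BIP3 had 13.6 and 10.8 CPM in phyAB red, against 2.43 and 2.97 CPM in phyB red (log2 2.17 ± 0.16, edgeR, adjusted p = 1.18e-21). Glucosinolate synthesis genes were called higher in 5 of 8 and lower in 0. THAS1 had 732 and 716 CPM in phyAB red, against 253 and 260.0 CPM in phyB red. AT5G37990 had 67.8 and 63.6 CPM in phyAB red, against 13.4 and 12.1 CPM in phyB red (log2 2.38 ± 0.07). ARR15 did not pass between the lines (0.723 and 0.707 CPM in phyAB red, against 0.561 and 0.719 CPM in phyB red, log2 0.13 ± 0.45), nor did NAI1 (log2 -0.01 ± 0.04).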

How the data were processed

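RNA sequencing libraries of 4 groups of 2 were available. The deposited tables hold, per the file headers, raw counts (whole numbers of reads) for every gene model. They also hold RPKM, in which the authors divided the counts by gene model length and library total. The RPKM values were used only for levels per length in the tables behind the text. The build is TAIR10, per the submitters' processing notes. Neither aligner and counting tool nor library kit and strandedness are stated in these sources. Total counts were 15926547 and 22116924 in phyB red, 19760675 and 16326741 in WT red, 21699222 and 16619502 in phyAB red and 20045824 and 18714337 in WT dark, and intervals and floors cover counting error only.

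Counts were fitted with edgeR 4.0.16 (R 4.3.3, limma 3.58.1): filterByExpr with a minimum count of 10, TMM scaling, 1 model of 4 group means over all 8 libraries with no replicate term, and quasi-likelihood F-tests of phyB red minus WT red and phyAB red minus phyB red with Benjamini-Hochberg adjustment at 0.05. The test was run on simulated counts with 200 changed genes and a spread taken from these same libraries. That run cannot show whether libraries that may be technical lead to too many calls. CPM uses TMM-scaled totals. The SE is the larger of the log2 fold change over the square root of F and the counting error of the summed reads. A gene with 3 reads or fewer in a group and at least 30 in the other is given as an exact binomial ratio (95%) or, at 0 reads, against 3 counts for the group.

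The members, the 67 gene lists and the tests were chosen with earlier results of these data known, so the lists are no independent support. Genes were named by this rule: PHYA to PHYE, the 12 highest and 12 lowest called genes of at least 5 CPM whose groups do not overlap, up to 4 called members with the largest change of each list (all of a list of 6 or fewer), the 8 largest gains and losses in CPM, genes with reads in only 1 line, and up to 10 runs of neighbouring genes called at least 2-fold. Further members are named only for a list's role or range, and the genes beside AT3G55900 were added after its values were seen. Symbols, positions and upstream sequence come from the RefSeq annotation of TAIR10.1, which had an entry for 26719 of the 27416 gene models.

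Alternatives were DESeq2 1.42.0 (Wald test), its size factors in edgeR, no filter, a fit of the 4 compared libraries alone, a replicate block and leaving out each compared library. Between groups, libraries with the same replicate number did not deviate together (r between -0.018 and 0.011 over 15460 genes).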

Additional observations from a re-analysis of the deposited data

How the results depend on the processing

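With DESeq2's Wald test, 1761 genes were called higher and 1886 lower in phyB red than in WT red, against 2712 and 2896 with edgeR. The cause was not tested. Under the size factors of DESeq2 in edgeR, no filter, and a fit of the 4 libraries alone, higher counts were 2844, 2691 and 2739 and lower counts 2751, 2866 and 2873. With 1 library left out, the lone library of its group was assumed to vary like the other groups, and the counts were 1992 to 2239 higher and 2209 to 2438 lower. By at least 2-fold, 178 to 246 genes were called higher and 161 to 221 lower.

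The replicate numbers do not pair the libraries by the check given above, and a fit with the replicate number as a block called 2702 genes higher and 2898 lower. For phyAB red against phyB red, the block gave 5365 higher and 4986 lower, DESeq2 4144 and 4028, and leaving out 1 library 4553 to 4852 and 4205 to 4476.

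Of 282 named genes that were called, 60 lost the call under at least 1 of 9 alternatives and 0 changed sign. Of 134 counts over lists, 25 moved by over 1.5 times under DESeq2, 13 to 20 with a library left out, 1 with no filter, 1 in the fit of 4 libraries and 0 with other size factors or the block. Fragile counts include jasmonate repressors (1 to 4 lower), carotenoid synthesis (3 to 7 higher) and flavonoid synthesis (1 to 5 lower). No scaling moved the median of all genes by over 0.01. Genes of a few reads carry the widest SE.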
